A study of Mus musculus with 13 samples.

Results

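S100 proteins are small calcium-binding proteins that carry EF-hand loops. In most members, though not in S100A10, binding of calcium opens a surface on the protein to which partners such as annexins or cytoskeletal proteins attach. Several members are also released from cells and bind receptors such as RAGE and TLR4. In lung, S100A8 and S100A9 are known as the calprotectin pair of neutrophils, S100A4 as a protein of fibroblasts and macrophages, and S100A6, S100A10 and S100A11 as proteins of epithelial and stromal cells. The 10 genes described here are S100a1, S100a4, S100a6, S100a8, S100a9, S100a10, S100a11, S100a13, S100b and S100g, taken by symbol from the 20270 genes with a value in the lung libraries. The family was chosen by the measured level of S100a4, which was higher after bleomycin and lower in the knockout, so the differences of S100a4 between groups are given as a description with no test. All 10 genes passed the filter on low counts, and 15315 genes were tested.

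Poly(A)-enriched RNA of the lower right lung lobe was sequenced from 13 mice, to ask how the transcriptome of a fibrotic lung differs when the cannabinoid receptor CB1R is missing. The control group held 4 libraries labelled as wildtype controls, and saline was the vehicle of control mice per the methods. The WT bleomycin group held 5 libraries and the CB1R KO bleomycin group 4, all 9 taken 14 days after bleomycin was given once by oropharyngeal aspiration at 1 U per kg, an agent that injures the alveolar epithelium and leads to fibrosis. Wildtype mice were male C57BL/6J mice obtained at 13 weeks of age, and CB1R KO mice carried the genotype Cnr1-/- on a C57Bl/6J background, with no promoter or cell type named that would restrict the deletion. The sex and age of the knockout mice are not given in the sources used here, and knockout mice without bleomycin were not analysed here, so that an effect of genotype without bleomycin cannot be told apart from a changed response to it.

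The total of estimated counts lay between 14615904 and 16662580 in 12 libraries and was 53463884 in CB1R KO bleomycin library 11. As a check of the lung label, Sftpc, the surfactant protein C gene of type II alveolar cells, was measured at 14306 to 29304 TPM (transcript abundance scaled by transcript length and library, so that levels can be compared between genes). Cnr1 itself was not at 0 in the libraries labelled CB1R KO: they held 41 to 188 estimated counts against 50 to 110 in WT bleomycin, a log2 fold change of -0.53 ± 0.28 (standard error; edgeR quasi-likelihood test, Benjamini-Hochberg adjusted p = 0.367). The part of Cnr1 that the allele removes is not given in the sources used here, so a count over the whole gene does not check the genotype, and these 4 libraries are called CB1R KO as their labels call them. Where each library's value is given below, control libraries stand in the order 3, 21, 24 and 26, WT bleomycin libraries in the order 4, 2, 5, 4-B2 and 7, and CB1R KO bleomycin libraries in the order 8, 9, 10 and 11.

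Of the 10 genes, 8 lie on mouse chromosome 3, where S100a8 neighbours S100a9, S100a10 neighbours S100a11 and S100a1 neighbours S100a13, while S100b is on chromosome 10 and S100g on chromosome X. Promoter sequences from RefSeq (GRCm38.p6, 250 bases before and 50 after the annotated start, written in the direction of transcription) were found for 9 of the 10 genes, all but S100a10. The promoters of S100a4, S100a8, S100a9, S100a11, S100a1 and S100a13 are shown because the levels of these genes carry the results: S100a4 for its difference between groups, S100a8 and S100a9 for moving together, S100a11 for the highest level, and S100a1 and S100a13 because they start back to back. Capitals mark the letters of 4 motifs searched on both strands.
S100a4, chr3:90603520-90603819, plus strand: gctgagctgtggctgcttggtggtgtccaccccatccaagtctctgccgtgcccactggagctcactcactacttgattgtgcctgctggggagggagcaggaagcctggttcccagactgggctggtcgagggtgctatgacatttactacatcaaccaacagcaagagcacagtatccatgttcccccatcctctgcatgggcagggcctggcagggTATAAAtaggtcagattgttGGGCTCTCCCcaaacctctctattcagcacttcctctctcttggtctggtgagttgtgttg
S100a8, chr3:90668821-90669120, plus strand: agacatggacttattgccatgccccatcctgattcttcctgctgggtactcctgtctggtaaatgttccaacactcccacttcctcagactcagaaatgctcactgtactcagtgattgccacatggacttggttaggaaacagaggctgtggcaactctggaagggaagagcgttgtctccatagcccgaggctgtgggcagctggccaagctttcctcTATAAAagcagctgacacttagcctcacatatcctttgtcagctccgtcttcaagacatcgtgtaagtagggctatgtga
S100a9, chr3:90695672-90695971, minus strand: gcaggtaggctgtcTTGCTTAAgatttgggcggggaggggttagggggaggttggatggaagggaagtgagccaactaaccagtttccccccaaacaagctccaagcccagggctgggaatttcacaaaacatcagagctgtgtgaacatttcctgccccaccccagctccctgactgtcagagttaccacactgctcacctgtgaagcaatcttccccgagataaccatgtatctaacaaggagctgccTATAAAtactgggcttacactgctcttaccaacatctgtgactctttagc
S100a11, chr3:93520246-93520545, plus strand: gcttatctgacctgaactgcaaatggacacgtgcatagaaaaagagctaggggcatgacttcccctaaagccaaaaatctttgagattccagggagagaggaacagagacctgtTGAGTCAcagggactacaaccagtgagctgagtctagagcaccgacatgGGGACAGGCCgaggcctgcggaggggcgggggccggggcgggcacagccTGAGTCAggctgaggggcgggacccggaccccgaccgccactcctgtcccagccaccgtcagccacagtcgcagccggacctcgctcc
S100a1, chr3:90514281-90514580, minus strand: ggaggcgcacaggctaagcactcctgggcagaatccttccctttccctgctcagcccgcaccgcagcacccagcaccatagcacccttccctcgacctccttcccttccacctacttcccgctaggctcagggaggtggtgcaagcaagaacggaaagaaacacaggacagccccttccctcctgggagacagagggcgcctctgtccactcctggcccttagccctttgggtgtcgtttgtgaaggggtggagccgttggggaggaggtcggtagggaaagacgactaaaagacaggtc
S100a13, chr3:90514185-90514484, plus strand: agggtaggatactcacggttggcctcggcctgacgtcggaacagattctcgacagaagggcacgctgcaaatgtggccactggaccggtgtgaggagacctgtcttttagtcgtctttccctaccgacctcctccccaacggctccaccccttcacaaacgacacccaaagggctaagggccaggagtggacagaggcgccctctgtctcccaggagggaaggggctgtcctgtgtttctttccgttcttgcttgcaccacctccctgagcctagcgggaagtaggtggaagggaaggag

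The S100a11 promoter held the AP-1 letters TGANTCA at 2 places, 136 and 38 bases before the start, and the NF-kB letters GGGANNNNCC at 1 place. The S100a4 promoter held the TATA box letters TATAAA with their first base 31 bases before the start and, on the other strand, the NF-kB letters at -11. TATAAA stood 30 bases before the start of S100a8 and began on the annotated first base of S100a9, whose promoter also held the C/EBP letters TTGCNNAA. The S100g promoter held the C/EBP letters and TATAAA, whereas none of the 4 motifs was found in the windows of S100a1, S100a6, S100a13 and S100b. Over the 32851 promoters of the RefSeq table the share with a match was 7.81% for AP-1, 10.8% for C/EBP, 13.6% for the TATA box and 20.7% for NF-kB, so that each match describes letters that many promoters have. The windows of S100a1 and S100a13 shared 204 bases on opposite strands, with 104 bases between their annotated starts.

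In control lung the level of the 10 genes spanned from S100a11, at 966 ± 13.2 TPM (mean ± SD, n = 4), to S100b, at 1.33 ± 0.482 TPM. S100a6 followed S100a11 at 504 ± 29.9 TPM and was below it in all 4 libraries. S100a9 and S100a8 came next by their means, but their ranges overlapped with those of S100a6 and S100a10, so that their place in the order was not fixed by the 4 libraries. The ranges of S100a10 (238 to 257 TPM), S100a1 (157 to 178), S100g (111 to 138), S100a13 (93.5 to 101) and S100a4 (51.0 to 83.1) did not overlap from 1 gene to the next. In WT bleomycin S100a4 moved from place 9 to place 4, above S100a1 in 4 of 5 libraries, while S100a8 moved from place 4 to place 9. In CB1R KO bleomycin S100a4 was at place 6, and its range overlapped with those of its neighbours S100a9 and S100g. S100a11 made up 33.7% ± 6.70 of the summed TPM of the 10 genes in control, 48.4% ± 1.44 in WT bleomycin (n = 5) and 43.5% ± 6.56 in CB1R KO bleomycin (n = 4).

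**Figure D1:**
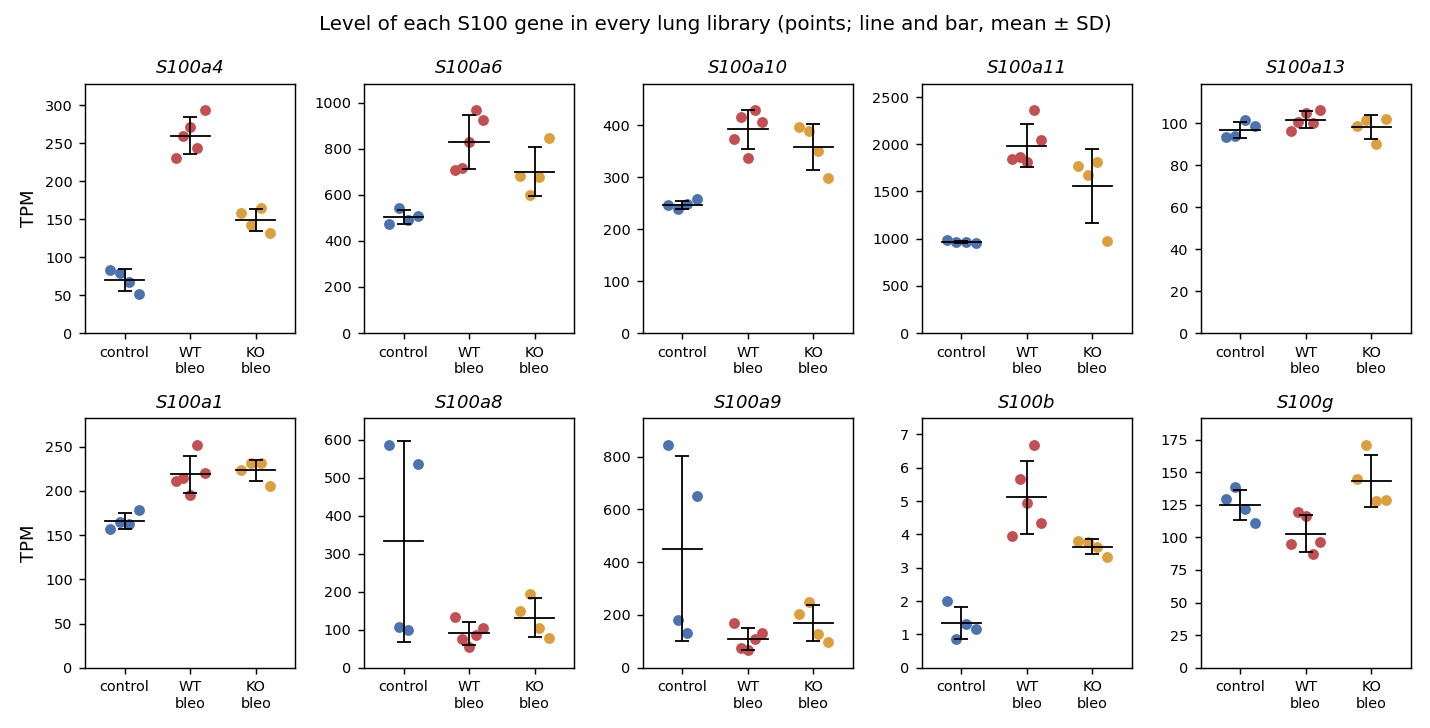
Level of each of the 10 S100 genes in TPM (vertical axis, a separate scale from 0 for each gene) in the 4 control, 5 WT bleomycin (WT bleo) and 4 CB1R KO bleomycin (KO bleo) libraries. Points are libraries, lines are means and bars are SD; S100a4 separates the 3 groups, 2 control libraries stand far above the rest for S100a8 and S100a9, and 1 CB1R KO library is at 975 TPM for S100a11, at the control level.

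S100a4, also named fibroblast-specific protein, binds non-muscle myosin and promotes cell motility. Its level was 83.1, 79.2, 67.5 and 51.0 TPM in the control libraries, 230, 260, 271, 244 and 293 TPM in WT bleomycin, and 158, 142, 164 and 132 TPM in CB1R KO bleomycin. Every WT bleomycin library was above every CB1R KO library, and every CB1R KO library above every control library. The fitted level in WT bleomycin was 3.65-fold that of control, a log2 fold change of 1.87 ± 0.12 (SE). CB1R KO bleomycin was 2.07-fold above control (1.05 ± 0.12) and differed from WT bleomycin by a log2 fold change of -0.82 ± 0.11. S100a4 took 2.45% ± 0.710 of the TPM of the 10 genes in control, 6.38% ± 0.767 in WT bleomycin and 4.24% ± 0.372 in CB1R KO bleomycin. In control its share was 2.31% and 1.53% in libraries 3 and 26, where S100a8 and S100a9 were high, and 3.16% and 2.82% in libraries 21 and 24. These values are those the family was chosen for.

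Among the 5 genes whose pattern over the 13 libraries lay closest to that of S100a4 were Enc1, Serpine2, Mgp and Tubb2b, by the root mean square difference of log2 CPM (counts scaled by library) after the control mean was subtracted. That difference was 0.16 for Enc1, an actin-binding protein gene, 0.21 for Serpine2, an inhibitor of thrombin and plasminogen activators, 0.21 for Mgp, a matrix protein that inhibits calcification, and 0.21 for Tubb2b. In TPM, Serpine2 stood at 84.9 ± 6.44 in control, 292 ± 21.6 in WT bleomycin and 205 ± 43.8 in CB1R KO bleomycin.

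Marker genes of fibroblasts, macrophages and lymphocytes are set beside S100a4. In WT bleomycin against control 25.0% of all genes tested were called higher and 23.9% lower. Between CB1R KO and WT bleomycin 0.359% were called higher and 0.620% lower. There 2608 of the 15315 genes had an unadjusted p under 0.05 by edgeR. These shares stand beside each count of marker genes here and below. The summed level of 9 fibroblast markers, led by Col3a1 and Col1a2, was 796 to 928 TPM in control, 2364 to 3071 TPM in WT bleomycin and 1775 to 2592 TPM in CB1R KO bleomycin. Of the 9, 6 rose in WT bleomycin against control and none fell. None passed the test between CB1R KO and WT bleomycin, although 9 of 9 were on the lower side and 4 had an unadjusted p under 0.05 by edgeR. The 9 macrophage markers, led by Lyz2 and C1qa, summed to 6323 to 7171 TPM in control, 7516 to 10790 in WT bleomycin and 11093 to 11946 in CB1R KO bleomycin. Most of this sum was Lyz2, the lysozyme gene, with a mean of 7514 TPM in WT bleomycin and 10261 TPM in CB1R KO bleomycin. The sum thus describes Lyz2 more than the other markers and is not taken as a measure of macrophages. Of the 9, 8 rose in WT bleomycin and none passed the test between the bleomycin groups by edgeR, where 7 were on the lower side, 2 on the higher side and 4 had an unadjusted p under 0.05, with a median log2 fold change of -0.12. C1qa, a complement gene, had a log2 fold change of -0.44 ± 0.14 there (edgeR, adjusted p = 0.148) and Lyz2 of 0.42 ± 0.10 (adjusted p = 0.0639). The 8 markers of T and NK cells, led by Gzma and Cd3g, summed to 116 to 167 TPM in control, 53.6 to 83.4 in WT bleomycin and 94.7 to 101 in CB1R KO bleomycin, with 4 lower in WT bleomycin than in control and 2 higher in CB1R KO than in WT bleomycin. No marker of these 3 lists was at 0 throughout a group. The part of these cells in the difference of S100a4 was not tested, and in whole lung fewer cells of a type and less RNA per cell cannot be told apart.

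Among the other 9 genes, 5 rose and 3 fell in WT bleomycin against control (edgeR quasi-likelihood test, adjusted p under 0.05), where 48.9% of all genes tested were called, 25.0% higher and 23.9% lower. Their median log2 fold change was 0.37, beside -0.0083 over all genes tested. Between CB1R KO and WT bleomycin none of the 9 passed, where 0.979% of all genes were called. In edgeR 4 of the 9 had an unadjusted p under 0.05, beside 2608 of the 15315 genes tested. DESeq2 called 1 of the 9, S100g, and 640 of 19823 genes over all. Against control, 5 of the 9 were higher and 2 lower in CB1R KO bleomycin, where 35.4% of all genes were called, 19.0% higher and 16.3% lower. In TPM, all WT bleomycin libraries were above all control libraries for 5 of the 9, S100a1, S100a6, S100a10, S100a11 and S100b, beside 22.8% of all genes (37.3% did not overlap in either direction). All CB1R KO bleomycin libraries were above all control libraries for 4 of these, S100a1, S100a6, S100a10 and S100b, beside 22.8% of all genes, while 32.6% did not overlap in either direction and 9.77% were lower. Between CB1R KO and WT bleomycin 3 of the 9 did not overlap, S100a11 and S100b lower and S100g higher, beside 5.27% of all genes. The comparisons with control share the 4 control libraries and are not independent of each other. The share called among the 9 stood above the background in the comparisons with control, on few genes that were chosen as a family.

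**Figure D2:**
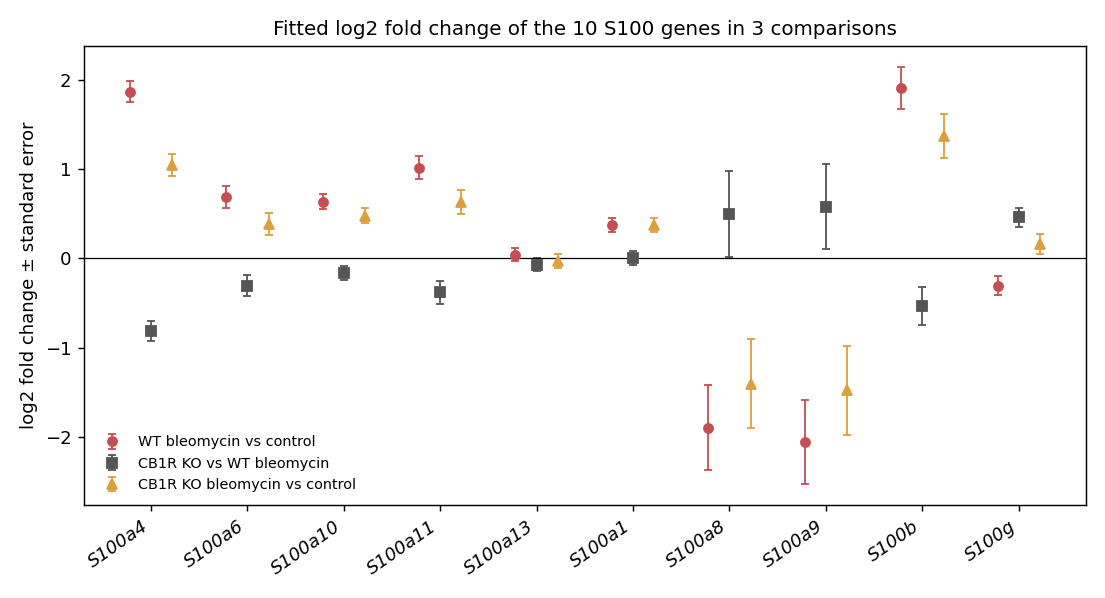
Fitted log2 fold change (vertical axis, bars show the standard error) of the 10 S100 genes for WT bleomycin against control (circles), CB1R KO against WT bleomycin (squares) and CB1R KO bleomycin against control (triangles). S100a4, S100a6, S100a10, S100a11 and S100b are above 0 in both comparisons with control and below 0 between the bleomycin groups, while S100a8 and S100a9 lie below 0 against control with the widest bars.

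S100a6, S100a10 and S100a11 are intracellular partners of annexins, which organise membranes and the cytoskeleton, and S100A10 is known to present plasminogen at the cell surface together with annexin A2. The level of S100a11 was 984, 963, 967 and 952 TPM in control, 1841, 1860, 1814, 2359 and 2043 TPM in WT bleomycin, and 1769, 1678, 1809 and 975 TPM in CB1R KO bleomycin. CB1R KO library 11 lay at the control level and the other 3 lay just below the lowest WT bleomycin library. S100a11 rose 2.02-fold in WT bleomycin (log2 fold change 1.02 ± 0.13; edgeR, adjusted p = 2.21e-05) and 1.55-fold in CB1R KO bleomycin (0.63 ± 0.14, adjusted p = 0.00247) against control. Between CB1R KO and WT bleomycin the log2 fold change was -0.38 ± 0.13 (edgeR, adjusted p = 0.156), and without library 11 it was -0.24 (adjusted p = 0.207).

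S100a6 measured 473 to 543 TPM in control, 708 to 967 TPM in WT bleomycin and 597 to 847 TPM in CB1R KO bleomycin. All libraries of the bleomycin groups were above all control libraries, and among the CB1R KO libraries library 11 was the highest for S100a6, whereas it was the lowest for S100a11. S100a6 rose 1.61-fold in WT bleomycin (0.69 ± 0.12; edgeR, adjusted p = 0.00028) and 1.30-fold in CB1R KO bleomycin against control (0.38 ± 0.12, adjusted p = 0.0277). That second call was lost when library 11 was left out (0.29, adjusted p = 0.0907), and also without control library 3, 24 or 26, where the adjusted p reached 0.0632. The difference between CB1R KO and WT bleomycin was -0.31 ± 0.12 (edgeR, adjusted p = 0.205).

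S100a10 was 246, 238, 248 and 257 TPM in control, 373, 417, 336, 429 and 406 TPM in WT bleomycin, and 396, 388, 351 and 298 TPM in CB1R KO bleomycin. The 4 control libraries lay close together and below all others. S100a10 rose 1.56-fold in WT bleomycin (0.64 ± 0.08; edgeR, adjusted p = 2.05e-05) and 1.39-fold in CB1R KO bleomycin (0.48 ± 0.09, adjusted p = 0.00069) against control, and the bleomycin groups differed by -0.16 ± 0.08 (adjusted p = 0.329). The gene closest to S100a10 in pattern was Pdpn, a membrane glycoprotein gene that is also on the list of type I cell markers below. Its root mean square difference was 0.07 in log2 CPM, followed by Ipo4 at 0.10. For S100a11 the closest were Dpep2 (0.13) and Ppp1r13l (0.17), and for S100a6 Rps2 and Ssbp4 (both 0.12). The 6 markers of type I cells, led by Ager and Hopx, summed to 4053 to 4337 TPM in control, 3264 to 3752 in WT bleomycin and 3337 to 4538 in CB1R KO bleomycin. Of these markers, 1 was higher, 2 were lower and 3 were not called in WT bleomycin. The 1 higher was Pdpn itself, whereas Hopx was among the lower and Ager was not called. None was called between the bleomycin groups, where 2 had an unadjusted p under 0.05 by edgeR.

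The estimated counts of S100a6, S100a8, S100a10 and S100a11 were whole numbers in 0 of 13 libraries (tolerance 1e-06), whereas those of the other 6 genes were whole in all 13. Fractions arise where reads also fit a transcript outside the gene or outside its sum and are shared out, so the levels of these 4 genes rest in part on that split. S100a11-ps is a pseudogene named in the annotation. No exon of a protein-coding transcript of another gene overlapped an exon of any of the 10 genes in GENCODE.

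S100a13 supports the release of the growth factor FGF1 and of interleukin 1 alpha. It measured 93.5 to 101 TPM in control, 96.2 to 106 TPM in WT bleomycin and 90.1 to 102 TPM in CB1R KO bleomycin, with overlap among all 3 groups. Its log2 fold change was 0.042 ± 0.072 in WT bleomycin against control (edgeR, adjusted p = 0.66) and -0.071 ± 0.072 between CB1R KO and WT bleomycin (adjusted p = 0.655). Rsrc1 was the second closest gene in pattern (0.064).

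S100a1, which starts back to back with S100a13 in the promoters above, is known as a regulator of calcium cycling in heart and skeletal muscle. It was 157, 165, 162 and 178 TPM in control, 211, 214, 196, 252 and 220 TPM in WT bleomycin, and 224, 231, 232 and 205 TPM in CB1R KO bleomycin. All libraries after bleomycin were above all control libraries, and those of the bleomycin groups overlapped. S100a1 rose 1.29-fold in WT bleomycin (0.37 ± 0.08; edgeR, adjusted p = 0.00136) and 1.30-fold in CB1R KO bleomycin (0.37 ± 0.08, adjusted p = 0.00298), and the difference between them was 0.0037 ± 0.078 (adjusted p = 0.985). The closest pattern was that of Cnih1 (0.08). Cardiac muscle markers are set beside S100a1. In WT bleomycin 7 of 7, led by Myl7 and Tnnt2, fell against control, where 23.9% of all genes were called lower. Their sum was 709 to 1850 TPM in control, 138 to 527 in WT bleomycin and 505 to 923 in CB1R KO bleomycin. None of the 7 passed between the bleomycin groups, where 6 had an unadjusted p under 0.05 by edgeR. The part of cardiac muscle in the level of S100a1 was not tested.

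S100a8 and S100a9 form calprotectin, which binds zinc and manganese and is stored in neutrophils. S100a8 was 587, 108, 100 and 537 TPM in control, 134, 75.5, 54.0, 87.0 and 105 TPM in WT bleomycin, and 150, 195, 105 and 78.1 TPM in CB1R KO bleomycin. Control libraries 3 and 26 stood above every other library, and control libraries 21 and 24 lay within the range of the bleomycin groups. S100a9 was 843, 180, 132 and 649 TPM in control, 169, 76.4, 66.6, 109 and 133 TPM in WT bleomycin, and 204, 250, 128 and 96.3 TPM in CB1R KO bleomycin. The same control libraries were high, and the ratio of S100a8 to S100a9 in TPM stayed between 0.599 and 0.988 over the 13 libraries.

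In WT bleomycin against control S100a8 fell by 1.90 ± 0.48 on the log2 scale (edgeR, adjusted p = 0.00441) and S100a9 by 2.06 ± 0.47 (-2.06; adjusted p = 0.00239). Against control, CB1R KO bleomycin differed by -1.40 ± 0.50 for S100a8 (edgeR, adjusted p = 0.041) and -1.48 ± 0.49 for S100a9 (adjusted p = 0.031). These calls rested on control libraries 3 and 26. With both left out, an alternative added after their levels had been seen, the log2 fold change in WT bleomycin was -0.22 for S100a8 (adjusted p = 0.612) and -0.53 for S100a9 (adjusted p = 0.249), and in CB1R KO bleomycin it was 0.28 (adjusted p = 0.56) and 0.051 (adjusted p = 0.936). Leaving out only control library 3 or only control library 26 ended the call of both genes in CB1R KO bleomycin, with an adjusted p from 0.0868 to 0.139. The call of S100a8 in CB1R KO bleomycin was also lost without CB1R KO library 8, 10 or 11 or WT bleomycin library 4-B2 or 7, and that of S100a9 without CB1R KO library 10 or 11, with an adjusted p from 0.0508 to 0.115. Both calls in CB1R KO bleomycin were lost as well with DESeq2 on the 2 groups (adjusted p = 0.106 for S100a8 and 0.0739 for S100a9), edgeR on the 2 groups (0.084 and 0.0636), limma on log2(TPM + 1) (0.202 and 0.141) and log2(TPM + 0.1) (0.223 and 0.16), label style as a term (0.0857 and 0.0595) and lower-case labels only (0.17 and 0.117). CB1R KO and WT bleomycin differed by 0.50 ± 0.48 for S100a8 (edgeR, adjusted p = 0.638) and 0.58 ± 0.48 for S100a9 (adjusted p = 0.571).

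The gene closest in pattern to S100a8 was S100a9, at a root mean square difference of 0.20, then Cxcr2, a chemokine receptor of neutrophils, at 0.23. For S100a9 the second closest was Csf3r, the receptor of granulocyte colony-stimulating factor, at 0.24. Csf3r had a log2 fold change of -1.89 ± 0.37 in WT bleomycin against control, given with no test because its pattern chose it. Its control libraries spanned 23.7 to 94.7 TPM. The sum of 13 neutrophil markers, led by Retnlg and Ltf, was 339, 126, 97.6 and 285 TPM in the control libraries, 144 to 183 TPM in WT bleomycin and 92.7 to 158 TPM in CB1R KO bleomycin, so that control libraries 3 and 26 were the highest here too. Of the 9 neutrophil markers tested, 4 fell and 1, Ltf, rose in WT bleomycin, and none passed between the bleomycin groups, where 2 had an unadjusted p under 0.05 by edgeR. Ltf had a mean of 17.0 TPM in control and 59.4 TPM in WT bleomycin, where the mean sum was 164 TPM. With Ltf included, the sums in WT bleomycin exceeded those of control libraries 21 and 24. Cxcr2 and Csf3r went the other way. They reached at most 5.05 and 21.2 TPM in WT bleomycin and were at least 6.24 and 23.7 TPM in control. The sum thus mixes genes that moved in opposite directions and is not taken as a measure of neutrophils. None of the 13 was at 0 in every library of a group. The same 2 control libraries also had the highest sums of 6 adipocyte markers among the controls, 257 and 233 TPM against 83.9 and 67.2 TPM. The part of either cell type in the values of S100a8 and S100a9 was not tested.

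**Figure D3:**
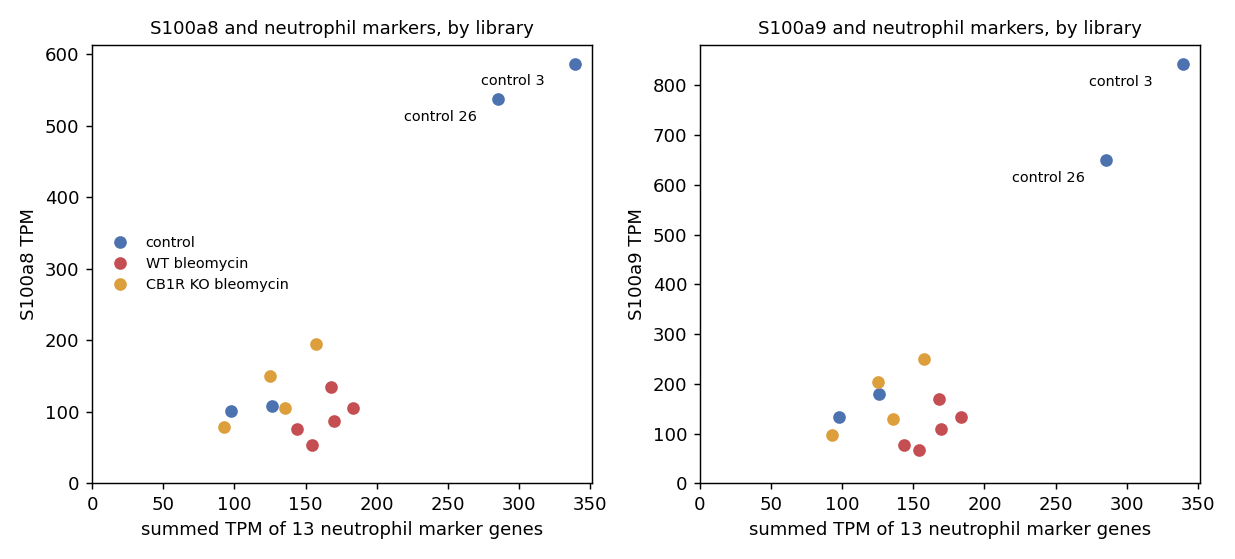
Level of S100a8 (left) and S100a9 (right) in TPM against the summed TPM of 13 neutrophil marker genes, 1 point for each library, coloured by group. Control libraries 3 and 26, at 339 and 285 TPM of marker genes, stand apart at the upper right, and the other 11 libraries lie at 92.7 to 183 TPM of marker genes with S100a8 at 54.0 to 195 TPM. The sum includes Ltf, which rose in WT bleomycin, and is not taken as a measure of neutrophils.

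S100b, the S100 gene of glia, Schwann cells and adipocytes, had the lowest level of the 10. It measured 1.99, 0.848, 1.33 and 1.16 TPM in control, 3.95, 5.65, 4.94, 6.68 and 4.33 TPM in WT bleomycin, and 3.82, 3.79, 3.63 and 3.31 TPM in CB1R KO bleomycin. The 3 groups did not overlap, and the highest CB1R KO library stood just below the lowest WT bleomycin library. Behind these levels were 13 to 30 counts in control, 54 to 90 in WT bleomycin and 50 to 161 in CB1R KO bleomycin. S100b rose 3.76-fold in WT bleomycin (1.91 ± 0.24; edgeR, adjusted p = 1.73e-05) and 2.59-fold in CB1R KO bleomycin (1.37 ± 0.25, adjusted p = 0.000753) against control, and differed by -0.54 ± 0.21 between CB1R KO and WT bleomycin (adjusted p = 0.219).

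Markers of Schwann cells, adipocytes and cartilage are set beside S100b. Of the 4 Schwann cell markers tested, 3 fell and none rose in WT bleomycin, and the sum of the 6 on the list, led by Prx and Mbp, was 144 to 154 TPM in control, 111 to 129 in WT bleomycin and 111 to 150 in CB1R KO bleomycin. Most of this sum was Prx, with a mean of 117 TPM in control and 88.2 TPM in WT bleomycin. The sum thus describes Prx more than the other genes on the list and is not taken as a measure of Schwann cells. Prx was among the 3 that fell, and Mbp was not called. Of the 5 adipocyte markers tested, 3 fell and none rose in WT bleomycin, and the sum of the 6 on the list, led by Cfd and Cidec, was 67.2 to 257 TPM in control, 23.6 to 144 in WT bleomycin and 62.3 to 262 in CB1R KO bleomycin. None of either list was called between CB1R KO and WT bleomycin by edgeR, with 0 Schwann cell and 4 adipocyte markers at an unadjusted p under 0.05. The 6 cartilage markers, led by Matn3 and Col2a1, were too low to be tested and summed to at most 0.735 TPM in any library. The part of these cell types in the level of S100b was not tested. The patterns closest to S100b were those of Aoc1 (0.26), a diamine oxidase, and Thbs1 (0.28), thrombospondin.

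S100g, or calbindin, is a vitamin D-dependent calcium buffer of intestinal and other epithelia. It was 129, 138, 122 and 111 TPM in control, 94.6, 119, 116, 87.3 and 96.4 TPM in WT bleomycin, and 145, 171, 128 and 129 TPM in CB1R KO bleomycin. Every CB1R KO library was above every WT bleomycin library, a separation in the higher direction that 3.11% of all genes tested had, while the control range overlapped with both. S100g fell by 0.30 ± 0.11 on the log2 scale in WT bleomycin against control (edgeR, adjusted p = 0.0294). This call was lost without control library 3 or 21 and without WT bleomycin library 4, 4-B2 or 7, with an adjusted p from 0.0562 to 0.0956, with limma on log2(TPM + 1) (adjusted p = 0.0578) and log2(TPM + 0.1) (0.0659), with lower-case labels only (edgeR, 0.132) and without control libraries 3 and 26 together (0.0553). CB1R KO bleomycin was 1.38-fold higher than WT bleomycin (0.46 ± 0.11), which missed the threshold in edgeR (adjusted p = 0.0548) and passed it in DESeq2 (adjusted p = 0.00517) and without CB1R KO library 10 (edgeR, adjusted p = 0.021). The difference from control was 0.16 ± 0.11 in CB1R KO bleomycin (edgeR, adjusted p = 0.287).

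The genes closest to S100g in pattern were Hnmt, a histamine methyltransferase (0.12), and Fahd1 (0.14). Of the 7 markers of type II cells, led by Sftpc and Sftpb, 6 fell in WT bleomycin and 3 were higher in CB1R KO than in WT bleomycin. Their sum was 31863 to 37229 TPM in control, 19000 to 22705 TPM in WT bleomycin and 23733 to 37268 TPM in CB1R KO bleomycin, so that WT bleomycin was the lowest group for these markers as for S100g. None of the 7 was at 0, and the part of type II cells in the level of S100g was not tested.

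Apart from S100g, other members were also separated between the bleomycin groups without a call. S100a11 and S100b, like S100a4, had every CB1R KO library below every WT bleomycin library, which 2.15% of all genes tested had. For S100a6 this held for 3 of 4 CB1R KO libraries, and for S100a10 and S100a13 for 1 of 4.

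A further 7 S100 genes had a value. S100a14, an epithelial S100 gene, was 6.97 to 16.0 TPM in control, 57.4 to 84.4 TPM in WT bleomycin and 46.3 to 66.8 TPM in CB1R KO bleomycin, and it rose 5.84-fold in WT bleomycin (2.55 ± 0.22; edgeR, adjusted p = 6.23e-07) and 4.93-fold in CB1R KO bleomycin (2.30 ± 0.22, adjusted p = 5.45e-06). Between the bleomycin groups its log2 fold change was -0.24 ± 0.19 (adjusted p = 0.544). S100a16 was 172 to 192 TPM over all libraries, with a log2 fold change of -0.045 ± 0.067 in WT bleomycin against control (adjusted p = 0.61). S100a7a was at most 1.31 TPM and was not called in any comparison. S100a2, S100a3, S100a5 and S100z were too low to be tested, with at most 12.3 estimated counts in a library.

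The labels of control library 26 and WT bleomycin libraries 4-B2 and 7 were written with capitals and the others in lower case, and what this difference stands for is not given. Within the lower-case libraries (3 against 3) the mean log2 CPM of WT bleomycin minus control was 1.69 for S100a4, 0.89 for S100a11, 0.58 for S100a10, 0.53 for S100a6, 0.32 for S100a1, 1.74 for S100b, -0.27 for S100g, -1.20 for S100a8 and -1.54 for S100a9. Within the capitalised ones (2 against 1) it was 2.35, 1.17, 0.66, 0.88, 0.36, 2.08, -0.30, -2.51 and -2.46 in the same order. Each gene had the same sign in both sets. All CB1R KO libraries have lower-case labels, and with the lower-case libraries alone S100a8 and S100g were no longer called in WT bleomycin (edgeR, adjusted p = 0.0569 and 0.132).

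S100 proteins act on receptors and partners, and 27 genes of these were listed with results of these data known: 7 receptors, 15 intracellular partners and 5 genes of plasminogen activation, of which 26 were tested. In WT bleomycin against control 13 of the 26 rose and 8 fell, beside the 25.0% and 23.9% of all genes, with a median log2 fold change of 0.27. Among the receptors Tlr4, Bsg and Mcam rose and Cd36 and Alcam fell, named here after their values were seen, while Ager, the gene of RAGE, had a log2 fold change of -0.21 ± 0.10 (edgeR, adjusted p = 0.101). Ager was the receptor with the highest level that is given here, 2211 ± 68.7 TPM in control, 1943 ± 99.6 in WT bleomycin and 2305 ± 374 in CB1R KO bleomycin.

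Of the 14 partners tested, 5 rose and 6 fell in WT bleomycin against control, beside 25.0% and 23.9% of all genes. Ahnak (log2 fold change -0.69), Anxa11 (-0.38) and Anxa6 (-0.21) were among those that fell, named here after their values were seen. Anxa1, a partner of S100A11, and Anxa2, the partner of S100A10, were among those that rose. Anxa1 went from 205 ± 12.4 TPM to 460 ± 39.0 TPM, a log2 fold change of 1.14 ± 0.09 (edgeR, adjusted p = 4.31e-07), and Anxa2 from 524 ± 17.0 TPM to 823 ± 23.2 TPM (0.64 ± 0.05, adjusted p = 5.18e-07). The fitted change of Anxa2 and that of S100a10 were both 0.64, and that of Pdpn, the gene nearest to S100a10 in pattern, was 0.63. A link between Anxa2 and S100a10 was not tested. Between CB1R KO and WT bleomycin the log2 fold change was -0.25 ± 0.09 for Anxa1 (edgeR, adjusted p = 0.173) and -0.079 ± 0.053 for Anxa2 (adjusted p = 0.471). None of the 14 partners and 7 receptors tested passed in that comparison by edgeR, with 5 and 2 at an unadjusted p under 0.05, and DESeq2 called 3 of them, Anxa6, Mcam and Ryr2. Over all genes 2608 of 15315 had an unadjusted p under 0.05 by edgeR there, and DESeq2 called 640 of 19823.

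The plasminogen genes, whose substrate S100A10 and annexin A2 hold at the cell surface, all rose in WT bleomycin: 5 of 5, with a median log2 fold change of 1.26, beside 25.0% of all genes called higher. Plat, the tissue plasminogen activator, rose from 32.9 ± 2.10 to 73.0 ± 3.67 TPM (1.11 ± 0.08; edgeR, adjusted p = 1.38e-07) and was lower in CB1R KO, at 54.3 ± 5.88 TPM (-0.47 ± 0.08, adjusted p = 0.0187).

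Plat was among the 2 of the 26 genes called between CB1R KO and WT bleomycin, both lower, beside 0.620% of all genes called lower. Plau, the urokinase gene, was 22.2 ± 3.90 TPM in WT and 13.8 ± 2.63 TPM in CB1R KO bleomycin (-0.72 ± 0.19; edgeR, adjusted p = 0.0778), and Serpinb2, an inhibitor of urokinase, 1.28 ± 0.501 and 0.439 ± 0.213 TPM (-1.64 ± 0.39, adjusted p = 0.0587). All 5 plasminogen genes were on the lower side in CB1R KO, with a median of -0.72 beside 0.00050 over all genes. The count in this comparison depended on the test and the libraries. DESeq2 on all libraries tested 27 of these genes and called 7, with Plat, Plau and Serpinb2 among them. Without CB1R KO library 8, 9 or 11 edgeR called 1, and Plat was no longer called. DESeq2 called 640 of 19823 genes over all.

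**Figure D4:**
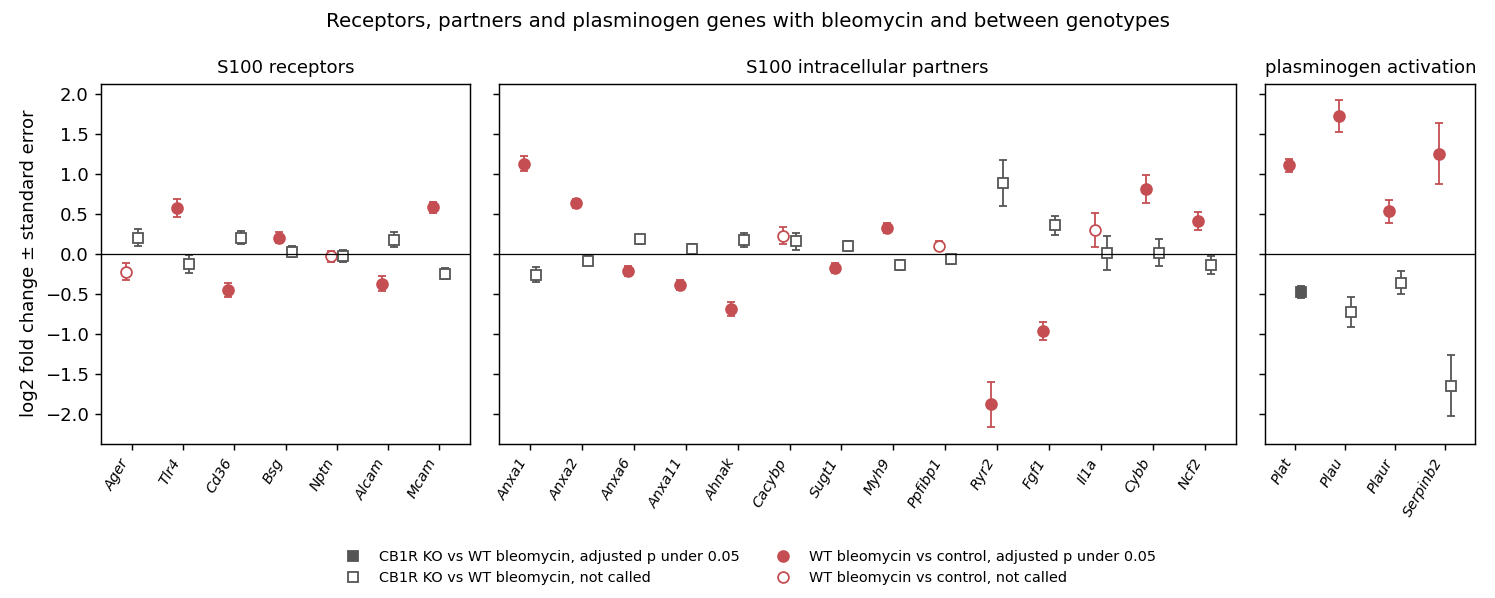
Fitted log2 fold change (vertical axis, bars show the standard error) of the receptor, partner and plasminogen genes tested and reported here, for WT bleomycin against control (circles) and CB1R KO against WT bleomycin (squares), with filled symbols for an adjusted p under 0.05. In the right panel the plasminogen genes lie above 0 with bleomycin and below 0 between genotypes, where Plat is filled.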

How the data were processed

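Lung RNA of 13 mice was sequenced as paired reads of 150 bases. The authors quantified the reads with Kallisto against the mouse reference of Ensembl (GRCm39 per the labels), kept protein-coding transcripts and deposited estimated counts per gene symbol, which were not normalized. The deposited TPM values are scaled by transcript length and library. The 13 tables of single samples equalled the series tables, and 1 column that matched no sample was not used. Of the count values 70.2% were not whole, so they were rounded.

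Counts were tested on 15315 genes by edgeR 4.0.16 (quasi-likelihood, R 4.3.3; filterByExpr, TMM, 1 coefficient for each group, all libraries), with Benjamini-Hochberg adjustment and a threshold of 0.05. The DESeq2 test used by the authors was an alternative (version 1.42.0), as were limma 3.58.1 on log2(TPM + 1) and log2(TPM + 0.1), 2 other normalizations, 2 other filters, fits on the groups compared, label style, a thinned library and leaving out each library. The test was checked on simulated counts. Levels are TPM, and folds, standard errors and adjusted p come from the fit. Replicates differed beyond sampling noise (chi-square at least 6.32 per degree of freedom).

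The 10 genes, the 27 pathway genes and the 10 marker lists were chosen with earlier results of these data known. Genes named are all S100 genes, Cnr1, Sftpc, the 4 pathway genes with the lowest p in each of the 2 main comparisons, the 2 most abundant genes of each marker list and the nearest genes in pattern (5 for S100a4, 2 for each other member), apart from those said to be named after their values were seen; some genes that this rule selects are not reported here. Strand of counting is not given in the sources used here. Promoters come from RefSeq on GRCm38.p6, another build than that of the counts.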

Additional observations from a re-analysis of the deposited data

Results flagged for a closer look

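Of the 30 sets of library values examined, 10 genes in each of 3 groups, 1 had a library that stood apart from the others of its group. S100a11 in CB1R KO bleomycin library 11 measured 975 TPM, the lowest of the 4, against 1678 to 1809 TPM in the other 3, and the gap to the next library was 0.843 of the whole range, above Dixon's 95% critical value of 0.829 for 4 samples. Chance alone flags about 1 in 20 such sets. The same library held 53463884 estimated counts, the most of the 13, and was the highest of its group for S100a6, at 847 TPM. With its counts thinned to the median of the other CB1R KO libraries, the log2 fold change of S100a11 between CB1R KO and WT bleomycin was -0.39, beside -0.38 with all its counts.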

How the results depend on the processing

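Each result was recomputed under 26 alternatives, of which 1, leaving out control libraries 3 and 26 together, was chosen after seeing the data. No paired analysis was possible because the groups share fewer than 2 replicate numbers. Of the 9 S100 genes other than S100a4, 8 were called in WT bleomycin against control (48.9% of all genes) and 5 to 8 under the alternatives, with 5 without control libraries 3 and 26. Between CB1R KO and WT bleomycin 0 of the 9 were called (0.979% of all genes), and 1, S100g, with DESeq2 and without CB1R KO library 10. In CB1R KO bleomycin against control 7 were called (35.4% of all genes) and 4 to 7 under the alternatives, with 4 without control library 3, control library 26, both of these or CB1R KO library 11. Counts over all 10 include S100a4, whose difference chose the family, and say nothing of it. They were 1 between CB1R KO and WT bleomycin, 2 with DESeq2 on all libraries or on the 2 groups, 0 with limma on log2(TPM + 0.1) and 0 to 2 without 1 library, and in CB1R KO bleomycin against control 8, 5 to 8 without 1 library and 5 without control libraries 3 and 26. Of the receptor, partner and plasminogen genes 2 were called between the bleomycin groups, 7 and 6 with DESeq2 on all libraries and on 2 groups, 1 with limma on log2(TPM + 0.1), 1 with lower-case labels only, and 1 to 5 without 1 library.

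Signs that turned were of small values or rested on the control libraries named. Between CB1R KO and WT bleomycin S100a1 had a log2 fold change of -0.00044 with upper-quartile normalization, -0.0077 with library 11 thinned and -0.026 to 0.074 without 1 library. In CB1R KO bleomycin against control S100a13 was at 0.018 with limma on log2(TPM + 1) and on log2(TPM + 0.1) and -0.077 to 0.021 without 1 library, and without control libraries 3 and 26 S100a8 was at 0.28 and S100a9 at 0.051.

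Over all genes, 150 were called between CB1R KO and WT bleomycin, 640 and 644 with DESeq2 on all libraries and on 2 groups, 81 and 3 with limma on log2(TPM + 1) and log2(TPM + 0.1), 88 with edgeR on 2 groups, 41 with label style as a term, 6 with lower-case labels only, and 1 (without CB1R KO library 9) to 653 (without CB1R KO library 10) without 1 library. With limma on log2(TPM + 1), 3481 genes were higher and 1490 lower in CB1R KO bleomycin than in control, beside 2911 and 2504. Depth was low for S100b, with 13 to 30 counts in a control library, and for S100a7a, with 6.03 to 12.1, and 4 other S100 genes were too low to be tested.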
